A study of Mus musculus with 6 samples.

Results

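Genes of homologous recombination and of the DNA damage response were followed in CD31-positive cells sorted from mouse tumours. The set held 37 genes, a list of Fanconi, recombination, mismatch repair, end joining and checkpoint genes, of which 36 had a row among the 23930 genes of the table. Xrcc3 had no row and entered only the promoter search below. The tumours came from LLC cells, a mouse line of Lewis lung carcinoma, placed under the skin of C57/Bl6 mice and taken 2 weeks later. In the control group (replicates 1, 2 and 3) the injected cells were control LLC cells, and in the BMP9 overexpression group (replicates 4, 5 and 6) they overexpressed BMP9, a ligand that signals in endothelial cells. The hosts of both groups are given as the same strain, and no host allele, age, promoter of the BMP9 construct or clone number of the cell lines is stated in the labels. Nothing in the labels ties each library to its own animal; the p-values thus rest on the spread among these 6 libraries, part of which may be technical.

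Homologous recombination mends broken DNA by copying the sister chromatid, so it works in S and G2 phase, when a sister is present. The Fanconi proteins unhook crosslinked DNA strands and hand the resulting break to recombination, and checkpoint kinases hold the cell cycle while repair runs. Many genes of these pathways are transcribed at the start of S phase under E2F factors, while others, such as the end joining proteins and the upstream kinases, are made throughout the cycle. On this textbook basis 21 members were treated as S-phase linked and 16 as constitutive.

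Values are RPM, read numbers scaled to the same total in every library, from a panel that amplifies 1 short segment per gene, so that levels of different genes are not compared here. Library depth ran from 1321762 to 28380957 reads, and 3 reads corresponded to 0.106 to 2.27 RPM. The Gdf2 transcript, which encodes BMP9, had no read in control libraries and 1, 1 and 5 reads (0.506, 0.227 and 0.176 RPM) in the BMP9 libraries; the overexpression was in the injected tumour cells, which the sort does not target. Pecam1, the gene of the sort marker CD31, was at 363.5 to 532.1 RPM in control and 246.6 to 352.9 RPM in BMP9 libraries. Of 16 endothelial markers 9, among them Tek, Emcn, Cldn5 and Erg, stayed under 5 RPM in every library. The rest reached 5 RPM in at least 1 library. Among these were Kdr (2.96 to 19.7 RPM), Plvap (2.27 to 22.7 RPM), Cdh5 (3.175 to 13.5 RPM) and Flt1 (3.03 to 31.5 RPM). Of the 4 endothelial markers that passed the filter, 1 rose and 1 fell. All 16 summed to 29.2 to 84.7 RPM in control and 40.5 to 55.8 RPM in BMP9 libraries. Most endothelial markers were thus low, and the libraries are called CD31-positive cells. With 1 amplified segment per gene, a low value does not show that a cell type is absent. T and NK cell markers (14 of 15 measured fell) summed to 5000 to 5160 RPM in control and 752 to 1238 RPM in BMP9 libraries. Macrophage markers (12 of 14 measured rose) summed to 4722 to 7317 RPM and 18880 to 24850 RPM. Neutrophil markers (3 of 10 measured rose, 7 were below the filter, Mpo was at 0 throughout) summed to 19.4 to 26.5 RPM and 110.6 to 225.9 RPM. Among all 9460 genes tested 22.5% fell and 12.7% rose (limma, adjusted p under 0.05). The part of these shifts in the results below was not tested, and in such bulk samples fewer cells of a type and less RNA per cell cannot be told apart.

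The promoters of both classes were searched for E2F words. Textbook E2F linkage was part of the basis of the split, so a higher share in S-phase linked members is partly built in. RefSeq windows on GRCm38.p6, the build of the deposited data, cover 250 bases before to 50 bases after the start site, and 17 of 21 S-phase linked and 12 of 16 constitutive members had one. 5 words of the E2F site were searched on both strands. The word TTGGCGC was searched first, the word TTCGCGC was searched as well, and so was the word TTGGCGG beside these. The remaining words were TTCCCGC and, as the last of the set, TTCGCGG. At least 1 of them stood in the windows of 13 S-phase linked members (76.5%) and 3 constitutive members (25.0%). The share was 12.8% among all 27025 genes with a window and 24.2% among the 7326 with a window that passed the expression filter. Replication genes, another class listed for its S-phase role and so no independent check, had a match in 22 of 31 windows (71.0%). The CCAAT box, a common promoter element searched as CCAAT on both strands, did not follow this pattern, with 58.8% and 66.7% in S-phase linked and constitutive members, 41.1% in all genes and 42.1% in those that passed the filter. TTTGAA, the core of the element that times G2 and mitosis genes, stood in 17.6% and 0 of their windows, against 20.2% of all genes and 14% of those that passed the filter. A match is a word in a sequence, not a bound site. Whether the words follow the changes in level within the S-phase linked class was not tested. Chek1, Clspn, Rad51ap1 and Brip1, with large decreases, carried E2F words. So did Fancg, tested and not called, and Fancb, below the filter. Blm, Eme1, Fanca and Rad54l had a window without one and were called lower. Stretches of 150 bases without an annotated exon are shown for 3 S-phase linked members with large decreases and for 3 constitutive members, written 5′ to 3′ on the gene's strand with E2F words in capitals. Clspn lies at chr4:126556785-126556934 (plus strand, from 195 to 46 bases before its start site). The others run from 150 bases before the start site to the base before it, at chr6:126939588-126939737 for Rad51ap1 (minus strand), chr11:86201194-86201343 for Brip1 (minus), chr1:72307271-72307420 for Xrcc5 (plus), chr2:121271408-121271557 for Trp53bp1 (minus) and chr1:180568741-180568890 for Parp1 (plus).
Clspn: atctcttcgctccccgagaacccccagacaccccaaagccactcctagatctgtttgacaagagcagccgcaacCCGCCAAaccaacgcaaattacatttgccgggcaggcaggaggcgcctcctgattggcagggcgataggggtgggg
Rad51ap1: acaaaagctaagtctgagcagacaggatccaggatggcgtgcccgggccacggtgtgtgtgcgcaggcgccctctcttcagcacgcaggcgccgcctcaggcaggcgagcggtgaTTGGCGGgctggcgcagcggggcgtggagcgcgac
Brip1: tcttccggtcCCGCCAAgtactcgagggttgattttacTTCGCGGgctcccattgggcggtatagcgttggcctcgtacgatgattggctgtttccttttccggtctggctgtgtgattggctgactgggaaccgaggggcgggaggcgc
Xrcc5: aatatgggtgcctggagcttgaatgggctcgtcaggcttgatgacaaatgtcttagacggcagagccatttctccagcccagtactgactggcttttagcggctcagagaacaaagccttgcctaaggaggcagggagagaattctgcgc
Trp53bp1: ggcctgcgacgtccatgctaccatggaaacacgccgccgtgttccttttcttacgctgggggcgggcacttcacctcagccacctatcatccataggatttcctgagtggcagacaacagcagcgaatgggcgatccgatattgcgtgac
Parp1: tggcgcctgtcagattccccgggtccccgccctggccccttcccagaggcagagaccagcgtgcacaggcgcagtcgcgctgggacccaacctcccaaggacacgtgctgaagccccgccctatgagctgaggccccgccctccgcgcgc
Brip1 carried 2 E2F words in this stretch and Clspn and Rad51ap1 carried 1 each, and the word of Rad51ap1 overlapped a CCAAT box on the other strand. The stretches of the 3 constitutive genes shown carried none. The genes shown were picked by hand, and the windows of the constitutive genes Atm, Chek2 and Xrcc6, not shown, each carried the word TTCCCGC.

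The S-phase linked members were lower in BMP9 libraries almost without exception. The control libraries (replicates 1, 2 and 3, the order kept below) had summed levels of 575.8, 486.5 and 457.0 RPM over the 21 genes, and the BMP9 libraries (4, 5 and 6) had 95.7, 95.9 and 95.9 RPM, a 5.28-fold lower mean. Of the 21 genes 17 fell (limma, adjusted p under 0.05), none rose, 1 was tested and not called and 3 lay below the filter of 5 RPM in 3 libraries. Among all 9460 genes tested 22.5% fell and 12.7% rose (35.2% in either direction). The filter favours this outcome, since 8 of the 18 tested genes passed it through control libraries alone. Without any filter 17 of the 21 were again called lower, against 8.27% of 18274 genes (4.64% were called higher), with Fanci and Polq losing their call and Fancd2 and Exo1 gaining one. Every BMP9 library was below every control library for 19 of the 21 genes, against 19.4% of genes with any read and 31.2% of genes tested.

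Constitutive members were also lower, by less. Their sum was 1092, 891.2 and 870.1 RPM in control and 438.6, 495.7 and 500.0 RPM in BMP9 libraries, a 1.99-fold lower mean. Of the 15 measured genes 5 fell, beside 22.5% of all genes tested, none rose, 7 were tested and not called and 3 were below the filter. Of the 12 tested, 1 (Xrcc5) passed the filter through control libraries alone. Without a filter 4 fell, as Rad50 lost its call (adjusted p = 0.090). With edgeR 3 fell, and with array weights in limma 10, a setting that called 3351 of all 9460 genes lower. The BMP9 libraries were all below the controls for 10 of the 15, against 19.4% of genes with any read and 31.2% of genes tested. The median log2 fold change (difference of mean log2(RPM + 1), BMP9 minus control, which understates changes of low genes) was -2.24 over the 21 S-phase linked and -0.78 over the 15 constitutive genes, beside -0.24 over all genes tested. The gap between the medians was thus -1.47. Within the earlier of the 2 run time stamps in the labels, which holds the controls and BMP9 replicate 4 only, the medians were -2.44 and -1.02. Tests within that stamp set 1 BMP9 library against the controls, with the spread taken from the controls alone and the lone library assumed to vary like them. With TMM scaling, which brings the median of all genes tested to 0.004, they were -2.02 and -0.53. The ratio of the S-phase linked to the constitutive sum, read only between libraries, was 0.525 to 0.546 in control and 0.192 to 0.218 in BMP9 libraries.

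**Figure D1:**
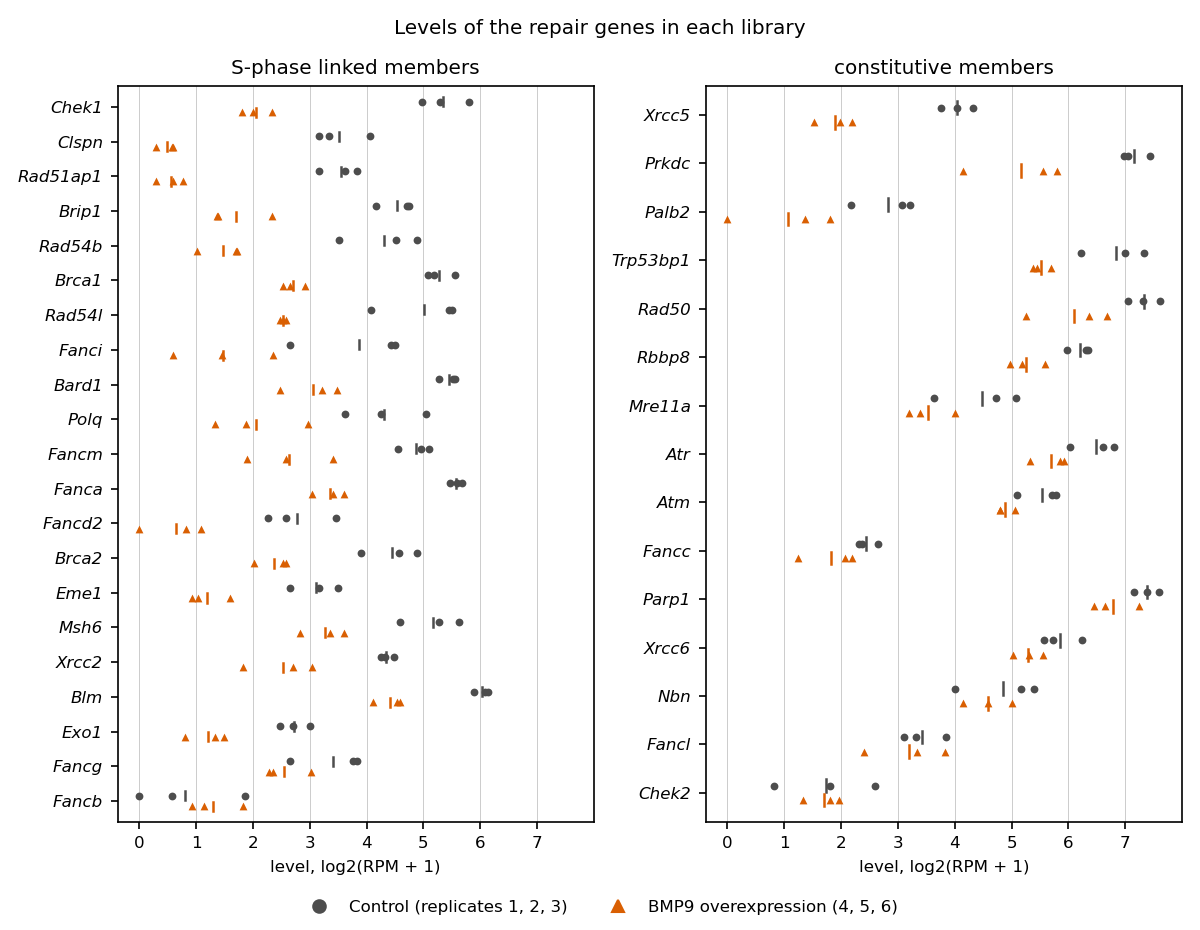
Level of each of the 36 measured genes in each library on the log2(RPM + 1) scale, control as grey circles and BMP9 overexpression as orange triangles, with a short bar at each group mean and genes ordered by their difference. Groups are apart, with BMP9 lower, for 19 of 21 S-phase linked and 10 of 15 constitutive genes. The share is 19.4% of genes with any read and 31.2% of genes tested.

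The recombination core contributed the most uniform decrease, with 7 of its 8 measured genes called lower and the groups apart for all 8. Among all genes tested 22.5% were called lower. Groups were apart in that direction for 31.2% of genes tested and 19.4% of genes with any read. Of the 7 tested core genes 3 passed the filter through control libraries alone. Brca1 (chromosome 11, 101488764 to 101551955, mm10), a ubiquitin ligase subunit that directs breaks to recombination, was at 46.2, 35.6 and 33.0 RPM in control and 6.58, 4.76 and 5.32 RPM in BMP9 libraries. The lowest control value was far above the highest BMP9 value, and the log2 fold change was -2.58 (SE 0.33, adjusted p = 3.9e-05). Its partner Bard1 (chromosome 1, 71027498 to 71103146) was at 37.7, 44.6 and 46.0 RPM against 4.56, 10.2 and 8.24 RPM (-2.39, SE 0.35, adjusted p = 0.00011). Brca2 (chromosome 5, 150522630 to 150570329), which readies resected DNA for strand exchange, went from 21.8 ± 7.41 to 4.27 ± 1.07 RPM (SD, n = 3 each; limma log2 fold change -2.08, adjusted p = 0.00067). Palb2, which links Brca1 and Brca2, was below the filter, with 7.42, 8.32 and 3.50 RPM in control and 0, 2.50 and 1.59 RPM in BMP9 libraries. Its groups did not overlap, but in the fit without a filter its adjusted p was 0.10 (log2 fold change -1.76, 95% CI -3.15 to -0.37).

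Factors that act on the strand exchange itself also fell. Rad51ap1 (chromosome 6, 126923050 to 126939587), which stimulates the formation of joint molecules, had 13.3, 11.4 and 8.001 RPM in control libraries and 0.506, 0.227 and 0.705 RPM in BMP9 libraries. The BMP9 values stood on 1, 1 and 20 reads, so the size of the decrease is poorly fixed (-2.99, SE 0.40, adjusted p = 5.2e-05). The motor proteins Rad54l (chromosome 4, 116094264 to 116123690) and Rad54b (chromosome 4, 11558922 to 11615805), which remodel joint molecules, had changes of -2.48 (SE 0.40) and -2.83 (SE 0.42). Rad54l varied in control libraries, at 42.8, 15.9 and 44.5 RPM, and little in BMP9 libraries, at 4.56, 4.76 and 5.003 RPM. Xrcc2 (chromosome 5, 25689812 to 25705825), which assists strand exchange, went from 19.4 ± 1.75 to 5.10 ± 2.39 RPM (SD, n = 3 each; limma log2 fold change -1.83, adjusted p = 0.0019).

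In the Fanconi pathway 3 of 8 members were called lower, beside 22.5% of all genes tested, and 3 lay below the filter. Of the called genes, Fanci passed the filter through control libraries alone. Fanca (chromosome 8, 123268300 to 123318576), a subunit of the core ligase complex, was at 50.4, 46.9 and 43.0 RPM in control and 11.1, 7.26 and 9.58 RPM in BMP9 libraries (-2.22, SE 0.31, adjusted p = 8.9e-05). Fancm (chromosome 12, 65075603 to 65132058), the translocase that anchors that complex to DNA, changed by -2.24 (SE 0.40), and by -1.46 within the earlier stamp. Fanci (chromosome 7, 79391929 to 79450264), which the complex ubiquitinates together with Fancd2, was at 21.6, 5.30 and 20.5 RPM against 0.506, 4.08 and 1.76 RPM. Control replicate 2 thus came close to BMP9 replicate 5, and the change of -2.39 had the widest error among the called members (SE 0.54, adjusted p = 0.0031, or 0.072 without a filter). Fancd2 (chromosome 6, 113531682 to 113597017) was below the filter at 10.04, 3.78 and 5.001 RPM in control and 0, 1.13 and 0.775 RPM in BMP9 libraries, with a change of -2.13 and an adjusted p of 0.032 in the limma fit without a filter.

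The main test called none of the other core subunits in the set, of which Fancg and Fancl entered it. Fancg (chromosome 4, 43002343 to 43010506) was the only tested S-phase linked gene that was not called, at 13.3, 5.30 and 12.5 RPM in control and 7.09, 4.08 and 3.88 RPM in BMP9 libraries (-0.87, 95% CI -1.75 to 0.01, adjusted p = 0.12). It was called when control replicate 2 was left out (-1.25, adjusted p = 0.033) and with array weights (-1.32, adjusted p = 0.00062), and was at -0.40 within the earlier stamp. Fancl (chromosome 11, 26386135 to 26471876), the ligase subunit, was at 13.3, 7.57 and 9.00 RPM against 13.2, 4.31 and 9.09 RPM, with wide overlap (-0.23, 95% CI -1.11 to 0.65). Fancc was below the filter at 4.48 ± 0.71 and 2.70 ± 1.16 RPM (SD, n = 3 each). Fancb was near the detection limit, at 2.62, 0 and 0.5 RPM in control and 2.53, 0.907 and 1.198 RPM in BMP9 libraries, and it had the only positive log2 fold change among the measured genes (0.48, 95% CI -0.75 to 1.71, without a filter).

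The S-phase linked helicases and nucleases were lower in BMP9 libraries, 3 of 4 by the main test, beside 22.5% of all genes tested. Brip1 and Eme1 passed the filter through control libraries alone. Both were also called in the limma fit without a filter (adjusted p = 0.010 and 0.026). Blm (chromosome 7, 80454733 to 80535119), the helicase that dissolves joint molecules, was at 58.5, 66.6 and 69.0 RPM in control and 22.3, 16.3 and 23.0 RPM in BMP9 libraries. This was the smallest change of a called S-phase linked gene (-1.62, SE 0.29, adjusted p = 0.00064). Brip1 (chromosome 11, 86058138 to 86201193), the Brca1-bound helicase whose promoter stretch carried 2 E2F words, was at 25.3, 25.7 and 17.0 RPM against 4.05, 1.59 and 1.62 RPM (-2.84, SE 0.39, adjusted p = 7.1e-05). Eme1 (chromosome 11, 94644996 to 94653964), a subunit of a structure-selective nuclease, changed by -1.92 (SE 0.41, adjusted p = 0.0021), and its call was lost within the earlier stamp (-1.51, adjusted p = 0.067). Exo1, an exonuclease of resection and mismatch repair, was below the filter at 6.98, 4.54 and 5.50 RPM in control and 1.52, 1.81 and 0.74 RPM in BMP9 libraries, with a call in the fit without a filter (-1.51, adjusted p = 0.040).

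The proteins that first bind and trim a break were constitutive members, and their values were mixed. Rad50 (chromosome 11, 53649519 to 53707319), the clamp of the Mre11 complex, was at 157, 195 and 132 RPM in control and 36.97, 101 and 81.0 RPM in BMP9 libraries. BMP9 replicate 4 was lowest, and the change of -1.23 (SE 0.34, adjusted p = 0.012) was -2.08 within the earlier stamp and -0.81 without that library. The call was lost without control replicate 2 (-1.09, adjusted p = 0.056) and with edgeR (-0.87, adjusted p = 0.061). Mre11a (chromosome 9, 14784654 to 14837123), the nuclease of that complex, was at 32.9, 11.4 and 25.5 RPM against 8.10, 14.97 and 9.44 RPM, with overlapping groups (-0.96, 95% CI -1.82 to -0.09, adjusted p = 0.079), and was called without control replicate 2 (-1.38, adjusted p = 0.016). Nbn, the third subunit (chromosome 4, 15957925 to 15992589), overlapped fully, at 34.7, 15.1 and 41.0 RPM against 16.7, 31.1 and 23.1 RPM (-0.27, 95% CI -1.10 to 0.55). Rbbp8 (chromosome 18, 11633276 to 11745221), a cofactor of resection, went from 73.4 ± 10.3 to 37.7 ± 8.59 RPM (SD, n = 3 each). Its change of -0.96 (adjusted p = 0.018) lost its call with TMM scaling (-0.71, adjusted p = 0.071), within the earlier stamp (-1.02, adjusted p = 0.0503), and when control replicate 1 (-0.89), control replicate 2 (-0.90) or BMP9 replicate 5 (-0.82) was omitted.

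**Figure D2:**
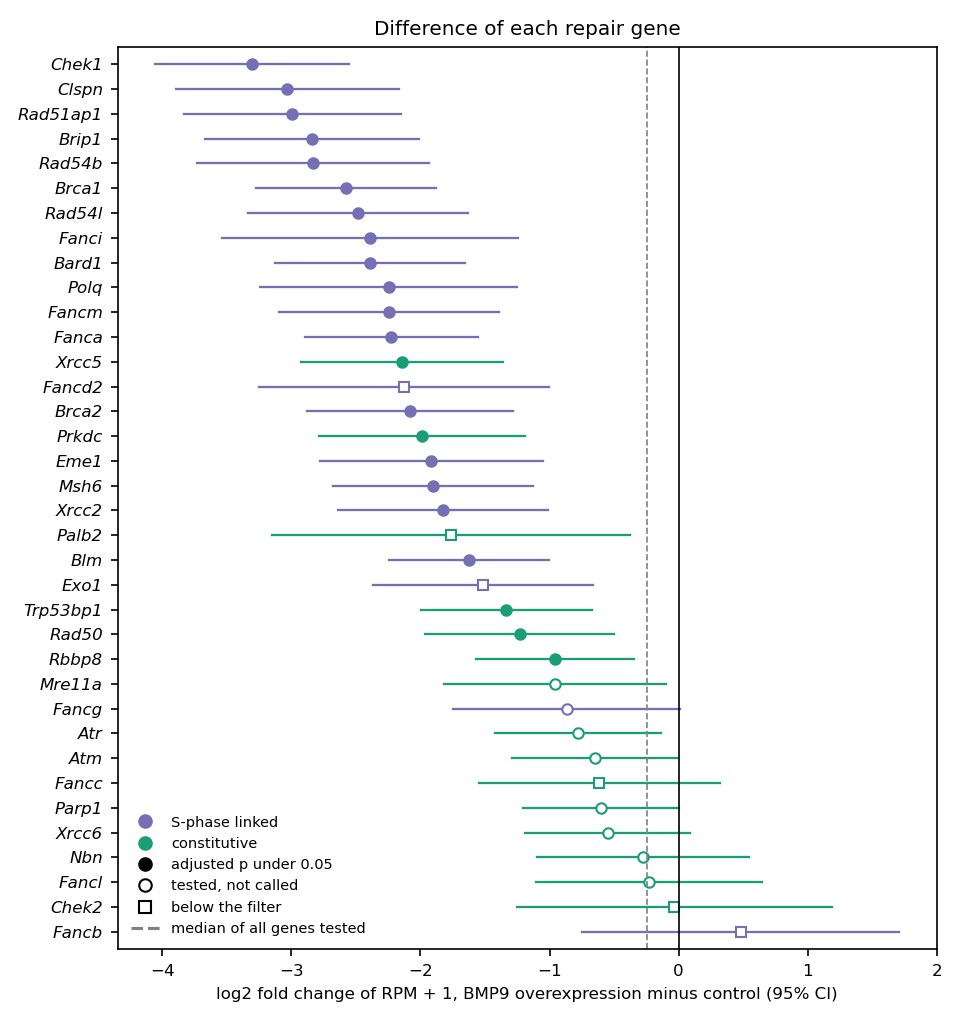
Log2 fold change of RPM + 1, BMP9 overexpression minus control, with 95% confidence intervals for the 36 measured genes, coloured by class. Filled circles passed an adjusted p of 0.05, open circles were tested and not called, and squares lay below the filter and come from the fit without it. Chek1 (-3.30) heads 12 rows of S-phase linked genes, and Xrcc5 is the first constitutive gene below them.

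End joining, which ligates broken ends without a template, held the constitutive genes with the largest decreases. Prkdc (chromosome 16, 15637866 to 15842235), the DNA-dependent kinase that lymphocytes also need to rearrange antigen receptor genes, was at 173, 131 and 126 RPM in control and 16.7, 46.0 and 54.7 RPM in BMP9 libraries. All BMP9 values were below all control values, and the change was -1.99 (SE 0.38, adjusted p = 0.00095), or -3.01 within the earlier stamp. The Ku subunits that bind DNA ends with this kinase had unlike values. Xrcc5 (Ku80; chromosome 1, 72307421 to 72394952) was at 15.5, 18.9 and 12.5 RPM in control and 3.54, 2.95 and 1.87 RPM in BMP9 libraries (-2.14, 95% CI -2.93 to -1.36, adjusted p = 0.00047). Xrcc6 (Ku70; chromosome 15, 81987835 to 82040085) was at 51.7, 74.9 and 46.5 RPM against 46.1, 38.3 and 31.7 RPM (-0.55, 95% CI -1.19 to 0.09, adjusted p = 0.17). The difference between the changes of these genes was not tested. Xrcc5 passed the filter through control libraries alone, and kept its call in the limma fit without a filter (adjusted p = 0.015). Trp53bp1 (chromosome 2, 121193281 to 121271407), which shields ends from resection and so favours end joining, was at 159, 73.4 and 126 RPM in control and 40.5, 42.9 and 50.8 RPM in BMP9 libraries (-1.34, SE 0.31, adjusted p = 0.0040). T and NK cell markers, which fell in the same libraries, are given above.

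The backup end joining pathway paired an S-phase linked with a constitutive gene. Polq (chromosome 16, 37011786 to 37095417), its polymerase, was at 31.9, 11.4 and 18.0 RPM in control and 1.52, 6.803 and 2.68 RPM in BMP9 libraries (-2.25, SE 0.47, adjusted p = 0.0019, or 0.050 without a filter). Parp1 (chromosome 1, 180568924 to 180601254), the nick sensor that recruits it, was at 193, 141 and 165 RPM against 150, 86.4 and 98.7 RPM. BMP9 replicate 4 lay within the control range, and the change of -0.60 (95% CI -1.20 to 0.002, adjusted p = 0.11) was -0.83 and called when that library was left out (adjusted p = 0.022), and -0.13 within the earlier stamp. Msh6 (chromosome 17, 87975062 to 87990892), the mismatch recognition subunit, was at 48.4, 37.8 and 23.0 RPM in control and 6.08, 11.1 and 9.30 RPM in BMP9 libraries (-1.90, SE 0.36, adjusted p = 0.0010).

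Checkpoint genes held both the largest decrease of the set on the log2(RPM + 1) scale and some of its smallest. Chek1 (chromosome 9, 36708482 to 36727065), the effector kinase of replication stress, was at 38.0, 54.5 and 30.5 RPM in control and 4.05, 2.50 and 2.995 RPM in BMP9 libraries. This was a 12.9-fold lower mean (-3.30, SE 0.35, adjusted p = 1.2e-05). The ratio of mean RPM was larger for Clspn (26.7-fold) and Rad51ap1 (22.7-fold), whose BMP9 levels rest on few reads. Clspn (chromosome 4, 126556935 to 126593903), the adaptor through which Atr activates Chek1, was at 15.7, 9.08 and 8.001 RPM against 0.506, 0.227 and 0.493 RPM, on 1, 1 and 14 reads (-3.03, SE 0.41, adjusted p = 5.8e-05). Chek1 and Clspn passed the filter through control libraries alone. Both kept their calls in the limma fit without a filter (adjusted p = 0.0054 and 0.0074). The upstream kinases were less affected. Atr (chromosome 9, 95857597 to 95951781), the sensor kinase of stalled forks, was at 111, 96.1 and 64.0 RPM in control and 39.0, 56.7 and 59.7 RPM in BMP9 libraries (-0.78, 95% CI -1.42 to -0.14, adjusted p = 0.057), and was called within the earlier stamp (-1.15, adjusted p = 0.044) and without control replicate 3 (-1.004, adjusted p = 0.039). Atm (chromosome 9, 53439149 to 53536740), the kinase that responds to breaks, was at 53.9, 33.3 and 51.5 RPM against 26.8, 32.2 and 26.9 RPM (-0.65, 95% CI -1.29 to -0.0008, adjusted p = 0.11). Groups of both kinases were apart, if narrowly for Atm. Chek2, the target of Atm, was below the filter, at 5.02, 0.757 and 2.50 RPM and 1.52, 2.50 and 2.92 RPM.

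**Figure D3:**
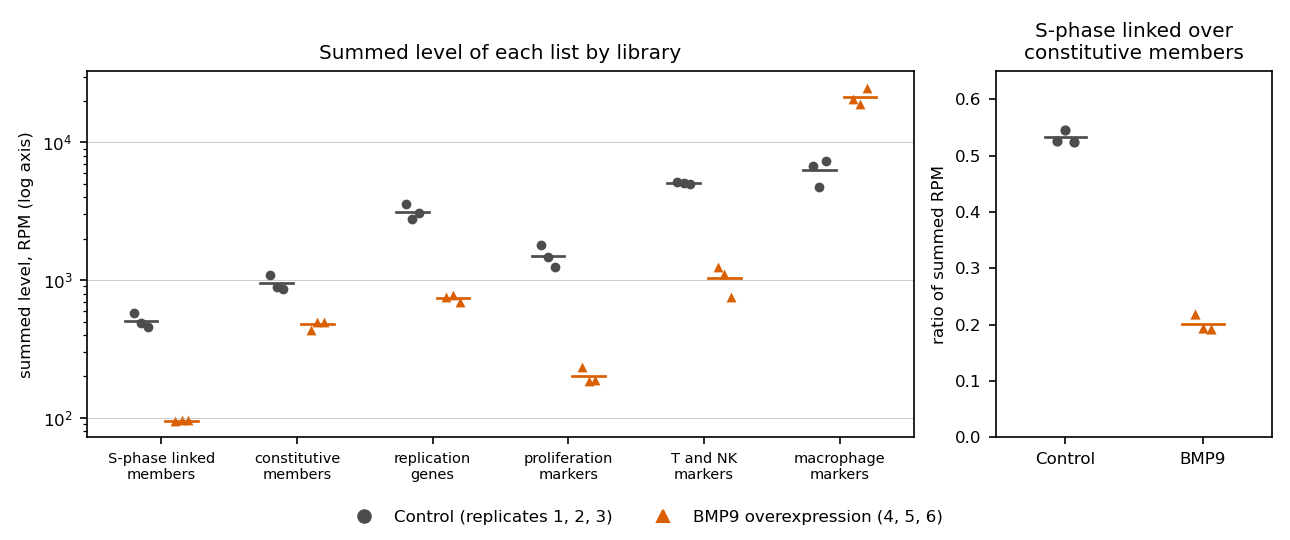
Left, summed RPM of each gene list in each library on a log axis, with a bar at each group mean (n = 3). Right, the S-phase linked sum divided by the constitutive sum, on an axis from 0. The ratio is 0.525 to 0.546 in control and 0.192 to 0.218 in BMP9 libraries.

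Replication and mitosis genes moved in the same libraries. Of 40 listed replication genes 36 were tested, 9 of which passed the filter through control libraries alone, and 33 fell and none rose, beside 22.5% lower among all genes tested, among them Mcm7 (-2.95, SE 0.27) and Mcm4 (-2.48, SE 0.27), subunits of the replicative helicase, and the chromatin remodeller Hells (-2.76, SE 0.29). Their sum was 2793 to 3569 RPM in control and 695 to 780 RPM in BMP9 libraries, 4.22-fold lower in the mean. A ratio of sums over different amplicons can be compared only between libraries. The ratio of the S-phase linked repair sum to the replication sum was 1.25-fold lower in the mean in BMP9 than in control libraries, and that of the constitutive sum was 2.13-fold higher. All 14 measured proliferation markers, which include Mki67 (-3.79, SE 0.34), fell, and their sum went from 1248 to 1802 RPM in control libraries to 185 to 236 RPM in BMP9 libraries.

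Of 71 other genes listed for these repair pathways, 68 were measured and 64 tested, of which 32 fell, none rose and 32 were not called, beside 22.5% lower among all genes tested (14.6% with TMM scaling). The filter was passed through control libraries alone by 4 of the 64. Lig1, the ligase of Okazaki fragments, went from 77.6 ± 23.0 to 6.38 ± 1.92 RPM (SD, n = 3 each; limma log2 fold change -3.41, adjusted p = 8.0e-06). Ube2t, the conjugating enzyme of the Fanconi core ligase, changed by -2.85 (SE 0.33). The count of lower genes was 21 without control replicate 1 or without a filter, and TMM scaling gave 24 lower and 2 higher, Fance (0.96, adjusted p = 0.045), another Fanconi core subunit, and Sfr1 (0.94, adjusted p = 0.040), a cofactor of strand exchange. Both were named after their values were seen.

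Of 24 genes listed as p53 targets, 21 were tested, and 4 rose, 3 fell and 14 were not called. Whether p53 activates each of them in these mouse cells was not tested. Their share of calls is near that of all genes tested, of which 35.2% were called (12.7% higher and 22.5% lower). Without a filter 4 rose and 1 fell. Cdkn1a, the p21 inhibitor of cyclin-dependent kinases, was at 62.2, 80.2 and 112 RPM in control and 321, 503 and 438 RPM in BMP9 libraries (2.31, SE 0.29, adjusted p = 3.5e-05). Plk2 and Gadd45a, which respond to growth arrest and stress signals, rose by 1.87 (SE 0.30) and 1.84 (SE 0.36). Mdm2, the ubiquitin ligase of p53 and the fourth gene that rose, changed by 1.79 (SE 0.37) and was named after its value was seen. Ddb2, a damage recognition protein of excision repair, fell from 54.7 ± 1.496 to 13.5 ± 2.42 RPM (SD, n = 3 each; limma log2 fold change -1.96, adjusted p = 0.00017). Tnfrsf10b, a death receptor, changed by -1.33 (adjusted p = 0.011), and lost its call without control replicate 3 (-1.12) or BMP9 replicate 6 (-1.12) and within the earlier stamp (-1.08). Trp53inp1, a stress-induced partner of p53, changed by -0.83 (adjusted p = 0.033), a call lost with TMM scaling (-0.58) and on leaving out any control library (-0.88 to -0.77) or BMP9 replicate 4 (-0.63) or 6 (-0.85). Other members of the list, such as Bax, a mediator of apoptosis, and Ccng1 did not pass. Macrophage markers, given above, were higher in the same libraries.

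**Figure D4:**
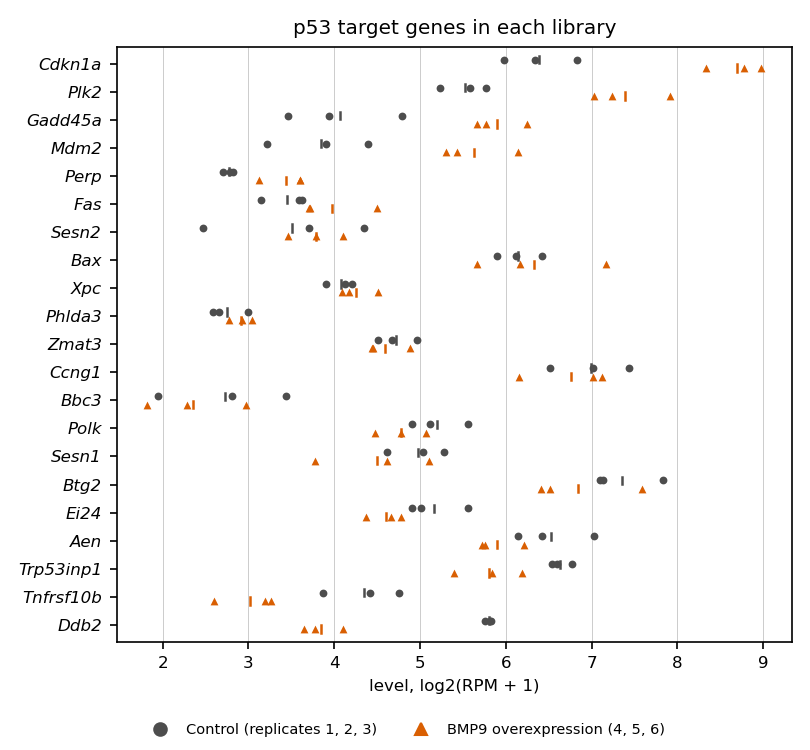
Level of the 21 tested p53 target genes in each library on the log2(RPM + 1) scale, control as grey circles and BMP9 overexpression as orange triangles, ordered from the largest increase to the largest decrease. Cdkn1a, Plk2, Gadd45a, Mdm2 and, without a call, Perp and Fas have all BMP9 libraries above all control libraries. Ddb2, Tnfrsf10b, Trp53inp1 and, without a call, Ei24 have them below. Among all genes tested the groups are apart for 16.8% with BMP9 higher and 31.2% with BMP9 lower.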

How the data were processed

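Transcripts of CD31-positive cells were counted with an amplicon panel (Ion AmpliSeq Transcriptome, mouse) after cell sorting, per the labels' protocols. RPM were deposited by the authors as library-scaled read numbers, judged from the table's values. Per the submitters' processing notes reads were placed on mm10; an aligner is not given in the sources used here. Whole reads were recovered for 100% of nonzero values within 0.05 reads. Floors of 3 reads cover counting error only, since amplified reads carry no molecular identifiers.

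Groups came from sample titles (3 libraries each). Genes that reached 5 RPM in 3 or more libraries were tested two-sided on log2(RPM + 1) by limma with a mean-variance trend (version 3.58.1 in R 4.3.3), with Benjamini-Hochberg adjustment over all 9460 genes and a threshold of 0.05; every adjusted p is from it unless another fit is named. It called 1200 genes higher and 2130 lower, or 1629 and 1383 with TMM. Alternatives were pseudocounts of 0.5 and 5, no filter, mean RPM of at least 20, TMM, quantile normalization, no trend, array weights, a term for the run stamp, the earlier run stamp on its own, omission of single libraries, thinning to the shallowest library, and edgeR 4.0.16 and DESeq2 1.42.0 on recovered reads.

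The members, their split into classes and all lists were chosen with earlier results of these data known. Named genes are all members and, of each further list, the 3 called genes of smallest p in each direction; a gene this rule names is not reported here. Gene positions are from GENCODE M21 and promoters from RefSeq, GRCm38.p6.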

Additional observations from a re-analysis of the deposited data

How the results depend on the processing

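No paired analysis was possible because the replicate numbers 1 to 3 and 4 to 6 are not shared between the groups. Leaving out each library in turn gave 2311 to 3552 called genes of all tested, 17 to 18 of the S-phase linked members, 4 to 6 of the constitutive members, 21 to 32 of the other repair genes, 5 to 7 of the p53 targets, 32 to 34 of the replication genes and a gap of medians of -1.54 to -1.31. Array weights raised the calls to 5102 over all genes and to 10 of the constitutive members, while edgeR called 3 constitutive members. A mean of at least 20 RPM, which tests fewer genes, left 6 S-phase linked members, 20 other repair genes and 21 replication genes called, all of these lower. Without a filter 21 other repair genes were called. The gap of medians was -0.79 with a pseudocount of 5, which compresses low levels. The other alternatives left these counts within 1.5 times, and the gap within the spread between replicates. Of 555 values of the 30 tested members under the alternatives, 522 kept direction and side of the threshold, 14 lost a call, 12 gained one and 7 changed sign. The 7 all belonged to Fancl, which was not called in any of them, at 0.10 after quantile normalization, 0.40 with the run stamp as covariate or within the earlier stamp, -0.55 to 0.16 on leaving out each library (above 0 without BMP9 replicate 5), 0.0018 with edgeR, 0.0051 with DESeq2 and 0.055 after thinning. Depth limits the genes below about 2 RPM in the shallow libraries, where Fancb, Chek2 and the BMP9 levels of Clspn and Rad51ap1 lie.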

Other observations

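Further repair genes are named here after their values were seen. All 3 subunits of replication protein A, which coats single-stranded DNA, fell, with log2 fold changes of -1.20 (Rpa1), -2.16 (Rpa2) and -2.19 (Rpa3) and limma adjusted p of 0.0024, 0.00012 and 0.0018. The fork protection partners Timeless and Tipin changed by -2.88 and -2.28 (both called lower). In mismatch repair Pms1 (-1.32) and Pms2 (-1.10) were called lower beside Msh6, while Msh3 (-0.50, adjusted p = 0.35) and Mlh3 (-0.41, adjusted p = 0.42) were not. Of the genes that ligate ends in end joining, Lig4 (0.09, SE 0.45) and Xrcc4 (0.41, SE 0.32) did not pass the test, and neither did Dclre1c (0.07, SE 0.27), the nuclease that Prkdc activates. H2afx, the histone variant phosphorylated beside breaks, went from 170.5 ± 22.04 to 35.3 ± 3.28 RPM (SD, n = 3 each; limma log2 fold change -2.23), whereas Mdc1, which binds its phosphorylated form, changed by less and was not called (-0.37, SE 0.32).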
